A study of Homo sapiens with 4 samples.

Results

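The peaks described here lie in the ribosomal RNA (rRNA) repeats of the short arm of chromosome 21. They were chosen as all peaks that overlapped, by at least 1 bp, the span of RNA45SN1, RNA45SN2, RNA45SN3, RNA28SN1, RNA28SN2, RNA28SN3, the 18S pseudogene RNA18SP5 or the 28S pseudogene LOC110467529. For Flag-AKT1 E17K 17 of 4838 peaks were found in this way, and for Flag-AKT1 WT 18 of 808. RNA immunoprecipitation followed by sequencing (RIP-seq) had been carried out on MDA-MB-231, a breast cancer cell line, transfected with a plasmid for Flag-tagged AKT1 of either the wild type (WT) or the E17K mutant form. For each plasmid there was 1 anti-Flag immunoprecipitate library and 1 input library, 4 in all, so differences between the plasmids could not be checked against replicates. All 4 libraries were made with an rRNA removal kit, which means that the rRNA reads are those left after depletion. The 2 groups differ in the AKT1 form of the plasmid, no deletion of the cells' own AKT1 is stated, and the plasmids are called E17K and WT from here on.

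The study asked which RNAs were bound by the mutant protein, and the peaks at rRNA allow the same comparison for an RNA that every cell holds in large amounts. In human cells RNA polymerase I transcribes tandem rRNA repeats into a 45S precursor. The precursor begins with an external spacer, followed by 18S, the short rRNA of the RNA5-8S genes and 28S with internal spacers between them, and the spacers are cut away during processing in the nucleolus. The 18S rRNA goes into the small ribosomal subunit, and the other 2 go into the large one. The copies of the repeat are nearly identical, so reads cannot be assigned to a single copy with certainty. Values of single copies are given with that limit. How reads with several matches were treated is not known, so the same reads may be counted in several copies. Agreement between copies, and counts of peaks or pairs over copies, therefore cannot be taken as independent.

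In the gene table of GRCh38 the first repeat is RNA45SN2 (chr21:8205988-8219302), with 18S at 8209631 to 8211499 and 28S at 8213888 to 8218941. The RNA18SP5 unit follows, with its 18S pseudogene at 8253842 to 8255704 and LOC110467529 at 8258134 to 8260930, and no 45S gene is named around it. RNA45SN3 lies at chr21:8389035-8402343 and RNA45SN1 at chr21:8433222-8446572. In all 4 units 18S comes before 28S in rising coordinates. All 17 and 18 peaks nevertheless carried the minus label, and 0 rRNA peaks in either list carried the plus label. The same was true of other genes: where the strand of the gene was known, the label was opposite to it in 98.3% of the E17K peaks and 99.2% of the WT peaks. The rRNA peaks were thus labelled like most peaks of other genes, opposite to the strand of the gene.

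Dividing the immunoprecipitate reads of a peak by its input reads gave its fold. Folds were not scaled for library size, because the lists give no library totals, and the median fold over all peaks was 2.18 in the E17K list and 0.976 in the WT list. For this reason each fold was divided by the median of its list, and the result is called the relative fold: a value of 1 is a peak at the middle of its own list. The control counts were read as input, following the labels, but the design text of the series also names an IgG control. Fisher's exact test, two-sided and with Benjamini-Hochberg adjustment over the list, set each peak against the remaining ones. This test compares 2 libraries and not the conditions. Intervals in the text are 95% intervals (Clopper-Pearson for a peak or a sum of peaks) and cover counting error only, since each group has 1 library. Reads without molecular identifiers are not independent molecules, so the intervals may be too narrow even for counting error. Intervals of sums over copies may also be too narrow, because the same reads may be counted in several copies.

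Summed over all rRNA peaks, the E17K immunoprecipitate had 1541 reads and its input 566, a fold of 2.72 and a relative fold of 1.25 (1.13 to 1.38). For WT the sums were 1511 and 845 reads, a fold of 1.79 and a relative fold of 1.83 (1.68 to 2.0). Summed over these peaks, the immunoprecipitates of both plasmids thus held more rRNA per input read than the middle of their own lists. Most of the summed length is 28S, 5800 of 8400 bp for E17K and 6800 of 9800 bp for WT. Over the 18S peaks alone the relative fold was 0.743 (0.612 to 0.904) for E17K and 1.04 (0.891 to 1.22) for WT. In the WT list 12 of 18 rRNA peaks were called higher in Fisher's exact test at an adjusted p under 0.05, with 1.86% of all peaks of that list called. A call means a higher ratio of immunoprecipitate to input reads than in the remaining peaks. Calls in different copies may rest on shared reads, so their number is not a count of independent results. Outside the rRNA genes 3 of 790 WT peaks were called higher. In the E17K list 1 of 17 rRNA peaks was called higher, with 0.0827% of all peaks called. By the binomial test against the list median it was 0 of 17, and without the 5 AKT1 peaks, which held 15.1% of the immunoprecipitate reads of that list, it was also 0. No rRNA peak was called lower, compared to 0.186% of all peaks in the E17K list and 1.24% in the WT list.

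**Figure D1:**
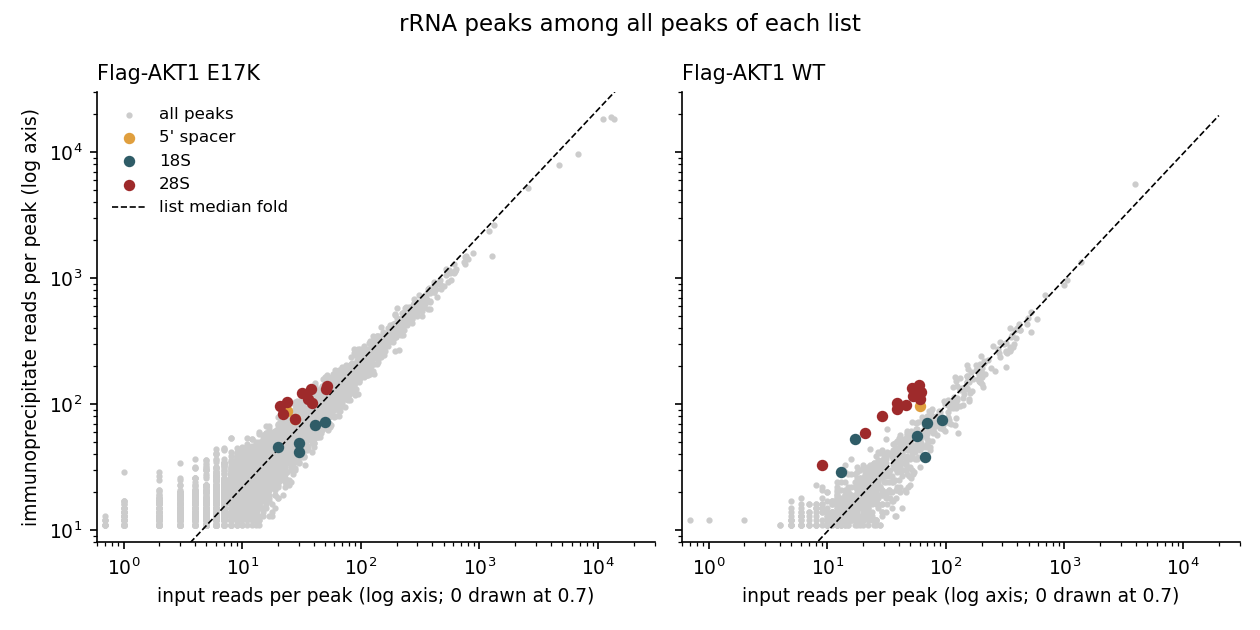
Immunoprecipitate reads (y axis) against input reads (x axis) of every peak, both on log axes, with the E17K list on the left and the WT list on the right. Grey points are all peaks, coloured points are the 17 and 18 rRNA peaks by part of the 45S unit, and the dashed line is the median fold of the list (2.18 and 0.976). The 28S peaks lie above the line in both lists, furthest from it in the WT list.

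By a fold alone, at least 1.5 times the list median, 6 of 17 rRNA peaks of the E17K list and 14 of 18 of the WT list were past the limit, compared to 14.9% and 14.6% of all peaks. The median relative fold of the rRNA peaks was 1.24 for E17K and 2.26 for WT, where the median of all peaks is 1 by definition. The other peaks of chromosome 21 with the minus label show how far the chromosome itself departs from the list. There were 16 of them in the E17K list, with relative folds from 0.716 to 1.27 and a median of 0.905. In the WT list there were 11, from 0.781 to 1.37 with a median of 1.0, and 0 of these peaks in either list were called in either direction. The nearest of the remaining chromosome 21 peaks lay 1718558 bp away from the repeats for E17K and 2232698 bp for WT, and no peak lay between the repeats outside the spans.

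The peaks were placed on the parts of the 45S unit by their overlap with the gene spans, and not every copy had a peak at each place. Laid over each other, the copies had peaks in the first external spacer, at an early and a late position of 18S and at 3 positions of 28S. No peak overlapped an RNA5-8S gene or lay in an internal spacer or in the 3′ external spacer, although 1 WT peak ran 20 bp past the end of RNA28SN3. At the 28S pseudogene the peak chr21:8260801-8261200 had 130 bp inside the annotated span and 270 bp beyond it, at a position that is 28S in the other units, and it was counted with 28S. The peaks of this strand follow a grid of 200 bp, which sets how finely they can be placed. Peaks at the same position could differ in width between copies and lists, so their read counts are not directly comparable. In the E17K list they covered 23.7% of RNA28SN2, 35.6% of RNA28SN3 and 35.5% of RNA28SN1. The WT peaks covered 23.7%, 47.1% and 43.4% of the same genes.

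**Figure D2:**
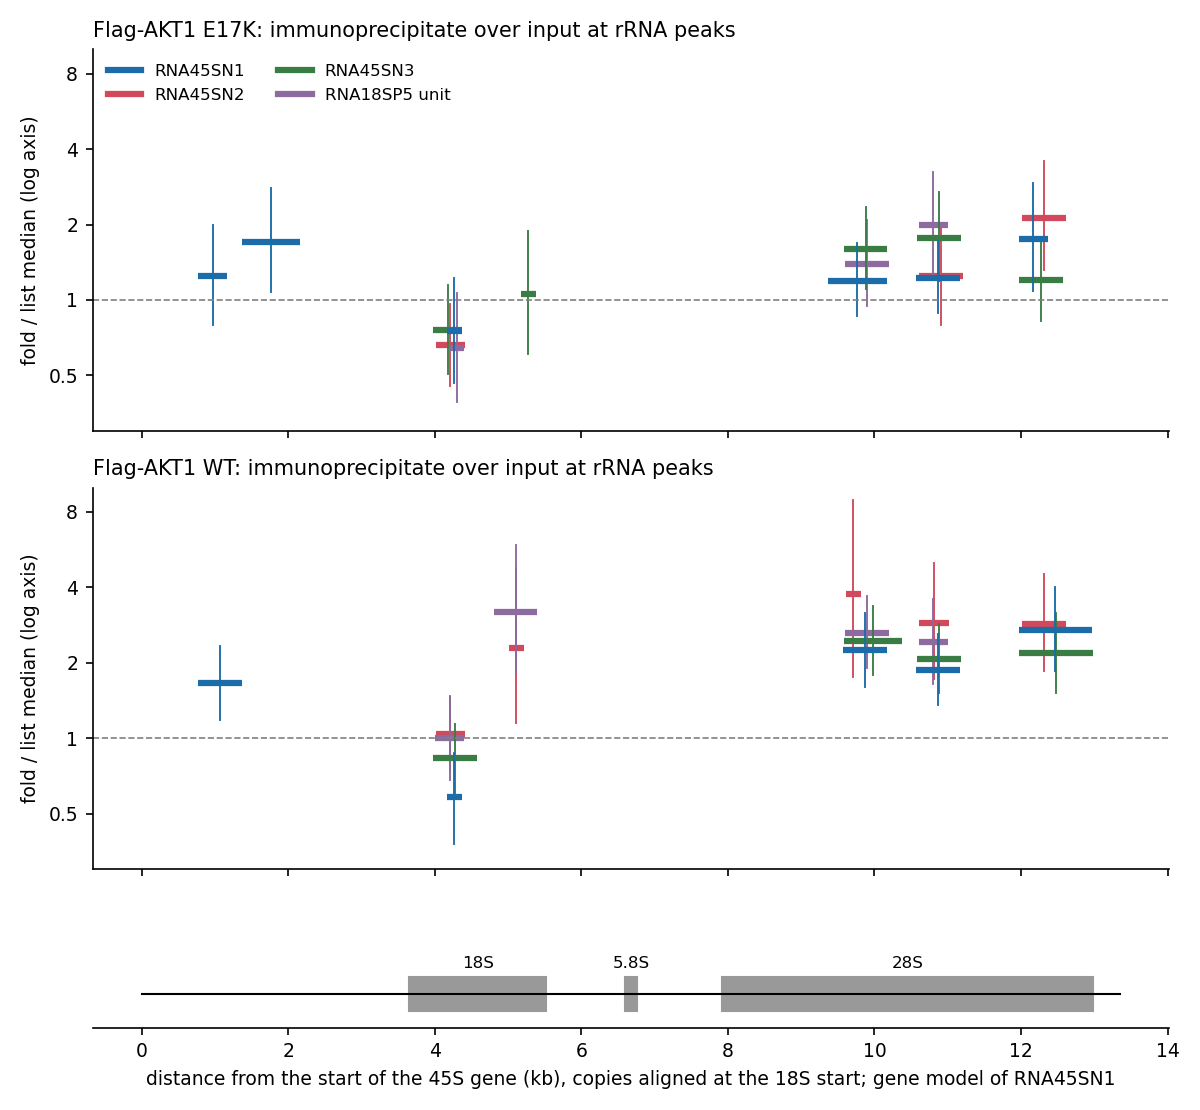
Relative fold of each rRNA peak (immunoprecipitate over input, divided by the list median, log axis) against its distance in kb from the start of the 45S gene, for E17K (top) and WT (middle), with the gene model of RNA45SN1 at the bottom. Thick bars span the peak, thin lines are 95% intervals for counting error, colours are the 4 units aligned at the start of 18S, and the dashed line is the list median. The early 18S peaks lie below the line for E17K and between 0.581 and 1.04 for WT, and the 28S peaks lie above it.

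The external spacer, which is present in the precursor and absent from mature ribosomes, had peaks in RNA45SN1 only. The peak chr21:8434001-8434400 of the E17K list began at base 780 of the 45S gene and held 76 immunoprecipitate and 28 input reads, a relative fold of 1.24 (0.797 to 1.99). The WT peak at the same start, chr21:8434001-8434600, held 97 and 60 reads, a relative fold of 1.66 (1.19 to 2.32, adjusted p = 0.0602 in Fisher's exact test). Further along, chr21:8434601-8435400 was a peak for E17K only, with 89 and 24 reads and a relative fold of 1.70 (1.07 to 2.79, adjusted p = 0.249 in Fisher's exact test). None of these spacer peaks passed the test. A missing peak in one list is no measurement of its reads, so the second spacer position has no value for WT.

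The 18S rRNA, the RNA of the small subunit, did not share the excess at its early position, between bases 336 and 935 of the gene. In the E17K list the reads of immunoprecipitate and input were 72 and 50 in RNA45SN2, 42 and 30 in RNA18SP5, 68 and 41 in RNA45SN3, and 49 and 30 in RNA45SN1. Their relative folds lay between 0.642 and 0.760, below the list median in all 4 units, and pooled they came to 0.701 (0.569 to 0.867). Because the units may share reads, they cannot be taken as 4 independent measurements, and pooled intervals may be too narrow. In the WT list the same position held 71 and 70 reads in RNA45SN2, 56 and 57 in RNA18SP5, 75 and 92 in RNA45SN3, and 38 and 67 in RNA45SN1. Here the relative folds ran from 0.581 to 1.04, with 0.860 pooled (0.721 to 1.02). None of these 8 peaks passed Fisher's exact test, and the lowest adjusted p was 0.692 for E17K and 0.119 for WT. By fold the 4 E17K peaks stood between the percentiles 5.50 and 15.2 of their list.

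At the late position of 18S, between bases 1160 and 1759, the 2 lists had peaks in different copies. The WT list had 53 immunoprecipitate and 17 input reads at chr21:8255001-8255600 in RNA18SP5, a relative fold of 3.19 (1.82 to 5.88, adjusted p = 6.71e-04 in Fisher's exact test). It also had 29 and 13 reads at chr21:8211001-8211200 in RNA45SN2, a relative fold of 2.29 (1.15 to 4.79, adjusted p = 0.156 in Fisher's exact test). The E17K list had 46 and 20 reads at chr21:8394201-8394400 in RNA45SN3, a relative fold of 1.05 (0.611 to 1.88). Within the WT list the late 18S position had a 3.26-fold higher ratio than the early one (2.07 to 5.12). For E17K the same ratio was 1.5 (0.856 to 2.64), so that a difference along 18S was not detectable at this depth. In the WT list the early 18S peaks thus lay near or below the list median and the late ones above it.

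The 28S rRNA, the long RNA of the large subunit, held most of the peaks, and all of its peaks lay above the median of their list. In the E17K list its 10 peaks held 1099 immunoprecipitate and 343 input reads, a relative fold of 1.47 (1.30 to 1.66), compared to the list median that 50.0% of all peaks exceed. In the WT list its 11 peaks held 1092 and 469 reads, a relative fold of 2.39 (2.14 to 2.66). All 11 WT peaks were called higher in Fisher's exact test, with adjusted p-values from 2.32e-07 to 0.00754. Relative folds of single 28S peaks ran from 1.20 to 2.12 for E17K and from 1.88 to 3.76 for WT.

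At the first 28S position, around bases 1456 to 2475, the E17K list had 109 immunoprecipitate and 36 input reads in LOC110467529, 132 and 38 in RNA28SN3, and 133 and 51 in RNA28SN1. The WT list had 134 and 52 reads in LOC110467529, 141 and 59 in RNA28SN3, 116 and 53 in RNA28SN1, and 33 and 9 in RNA28SN2. The last of these, chr21:8215601-8215800, had the highest relative fold of all rRNA peaks, 3.76 (1.76 to 8.93, adjusted p = 0.00754 in Fisher's exact test), on the fewest input reads. The E17K list has no peak there.

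At the second 28S position, bases 2656 to 3313, all 4 units had a peak in both lists. The E17K reads were 76 and 28 in RNA28SN2, 104 and 24 in LOC110467529, 123 and 32 in RNA28SN3, and 139 and 52 in RNA28SN1. The WT reads were 59 and 21, 92 and 39, 125 and 62, and 110 and 60 in the same order. The immunoprecipitate reads, not scaled for library size, were of like size in both lists, whereas the input reads were lower for E17K in 3 of the 4 units. In RNA28SN2 the E17K peak was 600 bp wide and the WT peak 400 bp, and per kb its input was lower for E17K too (46.7 and 52.5 reads). The pooled relative fold was 1.49 (1.23 to 1.82) for E17K and 2.17 (1.82 to 2.61) for WT.

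At the third 28S position, bases 4056 to 5075 near the 3′ end of the gene, lay the peak called higher in the E17K list. It is chr21:8218001-8218600 in RNA28SN2, with 97 immunoprecipitate and 21 input reads and a relative fold of 2.12 (1.31 to 3.57), at the percentile 95.6 of its list. Its adjusted p in Fisher's exact test was 0.0488, close to the limit, and the call was lost in the binomial test against the list median and without the AKT1 peaks. The same peak in the WT list held 81 and 29 reads, a relative fold of 2.86 (1.85 to 4.54, adjusted p = 3.74e-05 in Fisher's exact test). The other copies had 102 and 39 reads in RNA28SN3 and 84 and 22 in RNA28SN1 for E17K. For WT they had 98 and 46 in RNA28SN3 and 103 and 39 in RNA28SN1. These peaks differed in width, with 600 and 400 bp for E17K and 1000 bp each for WT. Per kb, not scaled for library size, the immunoprecipitate had 170 and 210 reads for E17K and 98.0 and 103 for WT. The input had 65.0 and 55.0 reads per kb for E17K and 46.0 and 39.0 for WT.

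The difference between 28S and 18S can be given within a list, where neither the library totals nor the list median enter. The ratio of immunoprecipitate to input reads was 1.98-fold higher over the 28S peaks than over the 18S peaks for E17K (1.58 to 2.48), and 2.28-fold higher for WT (1.89 to 2.76). These intervals, which assume normal errors on the log scale, overlapped. Divided by each other, E17K over WT, the ratios gave 0.866 (0.645 to 1.16), and with the early 18S peaks alone 0.755 (0.552 to 1.03). A difference between the plasmids in 28S over 18S was not detectable at this depth. Against the early 18S peaks alone, 28S was 2.09-fold higher for E17K (1.65 to 2.66) and 2.77-fold for WT (2.27 to 3.40). The late 18S peaks of the WT list had a fold of 2.73, not below the 2.33 of 28S. For E17K the late 18S peak had 2.3, below the 3.20 of 28S.

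Reads per kilobase of peak, not scaled for library size, show in which library the parts differed. In the E17K list the immunoprecipitate had 198 reads per kb over the 18S peaks and 189 over the 28S peaks, while the input had 122 and 59.1. The WT immunoprecipitate had 134 reads per kb over 18S and 161 over 28S, and its input 132 and 69.0. The input was thus 2.07 and 1.91 times denser over all 18S peaks than over 28S, and the ratio of 18S to 28S density in the immunoprecipitates was 1.04 and 0.835. The early 18S peaks had 126 input reads per kb for E17K and 179 for WT. The late 18S peaks had 100 and 37.5, so the input of the late WT peaks was thinner than that over 28S. The densest input of any rRNA peak, 335 reads per kb, was that of the WT peak chr21:8437401-8437600 in the 18S of RNA45SN1, where the immunoprecipitate had 190 and the relative fold was the lowest, 0.581 (0.380 to 0.878, adjusted p = 0.119 in Fisher's exact test). The part of rRNA depletion in these densities was not tested.

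**Figure D3:**
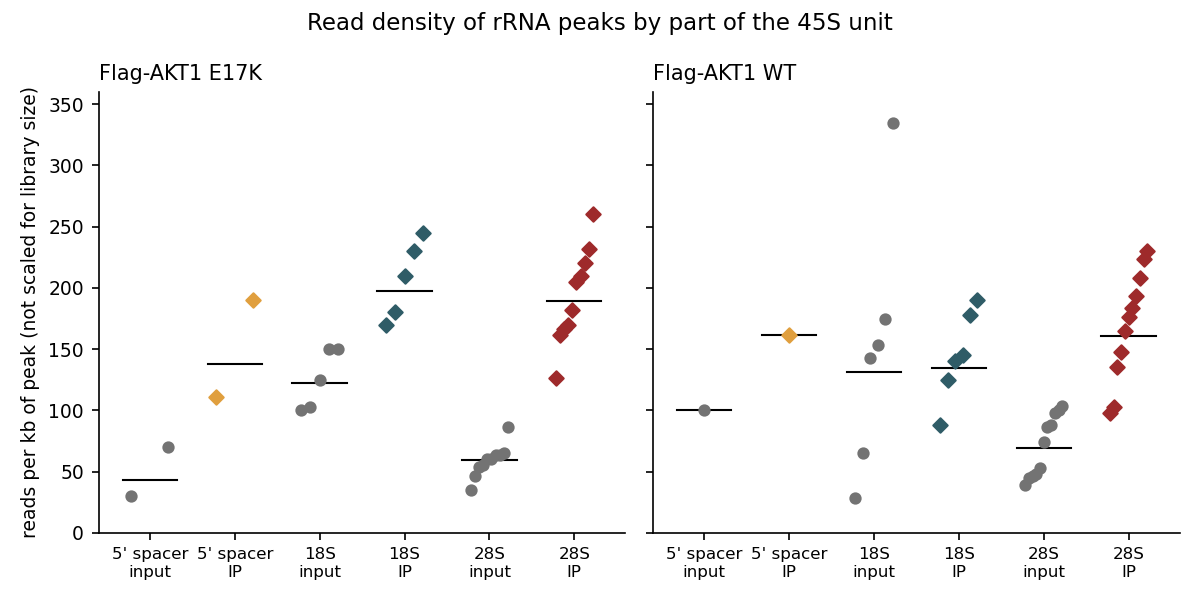
Reads per kb of peak, not scaled for library size, for the input (grey circles) and the immunoprecipitate (IP, coloured diamonds) of each rRNA peak by part of the 45S unit, for E17K (left) and WT (right). Points are single peaks, drawn in rising order within each column, and black lines are summed reads over summed length. The input lines fall from 18S to 28S (122 to 59.1 and 132 to 69.0), and the immunoprecipitate lines stay closer (198 and 189, 134 and 161). The late 18S peaks of the WT list, with 37.5 input reads per kb, lie below the 28S line.

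Most of the rRNA peaks were present in both lists. Of the E17K rRNA peaks 15 of 17 (88.2%) overlapped a WT rRNA peak on the same strand label, and 15 of 18 (83.3%) in the other direction, 7 of them with the same start and end. In the whole lists 0.909% of the E17K peaks and 5.20% of the WT peaks overlapped. The other minus-label peaks of chromosome 21 overlapped as well, 11 of 16 and 9 of 11, so other peaks of this strand label and chromosome were shared too. The E17K peaks with no partner were those of the late 18S position in RNA45SN3 and the second spacer position. The WT peaks with no partner were the 2 late 18S peaks and the first 28S position of RNA28SN2.

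Over all rRNA peaks the relative fold was 1.47 times higher for WT than for E17K (1.29 to 1.67, counting error only). Written as E17K over WT, this ratio was 0.681. Other references gave 0.673 (peaks outside chromosome 21), 0.755 (summed reads outside the rRNA genes) and 0.756 (other minus-label peaks of chromosome 21). At peaks of identical coordinates it was 0.737. The 2 list medians rest on largely different peaks, since 0.909% of the E17K and 5.20% of the WT peaks overlapped. By part, the relative fold for WT was 1.62 times higher over 28S (1.38 to 1.91) and 1.14 times over the external spacer (0.727 to 1.78). Over the early 18S position, which had a peak in all 4 units of both lists, the factor was 1.23 (0.938 to 1.60), and its interval included 1. Over all 18S peaks it was 1.41 (1.10 to 1.80), but this sum takes in the late peaks, which lay in different copies in the 2 lists. For the early 18S pair of each unit the factor was 1.57 (0.965 to 2.57) in RNA45SN2 and 1.57 (0.864 to 2.85) in RNA18SP5. It was 1.10 (0.671 to 1.80) in RNA45SN3 and 0.776 (0.424 to 1.42) in RNA45SN1, and each interval included 1. Over all peaks of a unit, the factor was 1.74 in RNA45SN2, 1.60 in the RNA18SP5 unit, 1.37 in RNA45SN3 and 1.35 in RNA45SN1. In 14 of the 15 overlapping pairs the relative fold was lower for E17K, and in 4 of them the interval of the ratio lay wholly on that side. The exception was the 18S peak of RNA45SN1, with 0.749 for E17K and 0.581 for WT. Among the 4 pairs with the interval wholly on one side, only chr21:8259801-8260400 had the same start and end in both lists. The others compared peaks of unlike width. Such pairs were not counted for the shared peaks outside the rRNA genes, so the counts are not shown to be particular to rRNA. The counts of pairs rest on the scaling, since every pair is divided by the same 2 list medians. Pairs at the same position of different copies may also share reads, so the pairs cannot be taken as independent. The unscaled folds ran the other way, 2.72 and 1.79 over all rRNA peaks, and were higher for E17K in 14 of the 15 pairs, the exception being the second 28S position of RNA28SN2 with 2.71 and 2.81. Which of the 2 scales is nearer to the amount of rRNA bound cannot be told from the peak lists, and with 1 pair of libraries per plasmid the difference has no replicate check.

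**Figure D4:**
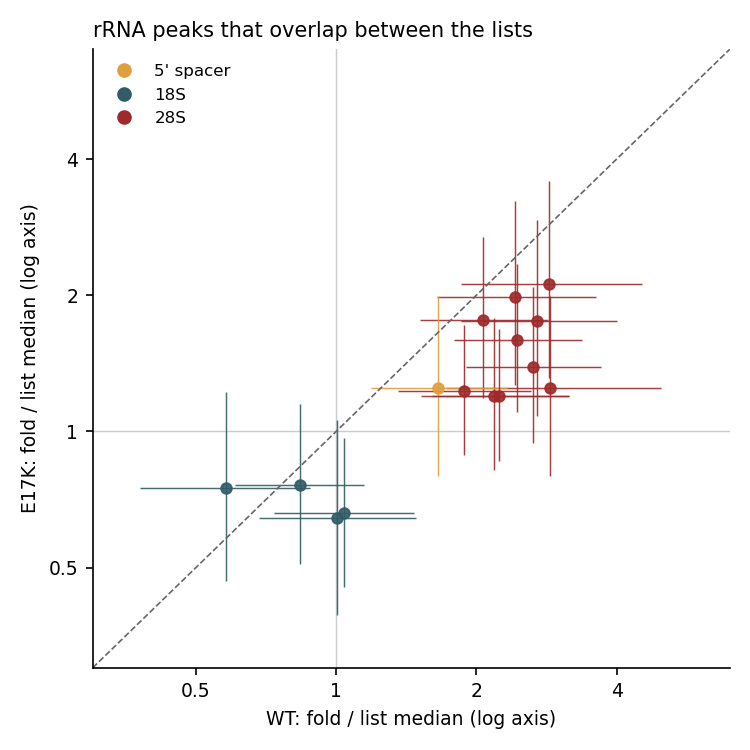
Relative fold for E17K (y axis) against WT (x axis) for the 15 pairs of rRNA peaks that overlap between the lists, on log axes, coloured by part of the 45S unit. Error bars are 95% intervals for counting error, and the dashed line marks equal values. 14 of the 15 points lie below the dashed line on this scale, while the unscaled fold was higher for E17K in 14 of the 15 pairs, and the 18S points lie apart from the 28S points.

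Fisher's exact test takes only counting error into account. Over all peaks the mean squared deviation from one common ratio was 1.89 times the binomial variance in the E17K list and 2.56 times in the WT list. The p-values therefore overstate the certainty, and the intervals, which also take only counting error into account, may do so too.

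Other genes of ribosome making were looked up in the same way. Of 549 other rRNA genes and pseudogenes in the gene table, 1 span had a peak in each list: RNA5-8SP3 with 85 immunoprecipitate and 32 input reads for E17K, and RNA5SP155 with 36 and 27 for WT, neither of them called. Of 15 genes of RNA polymerase I and its factors, 2 had peaks in the E17K list: POLR1F, a subunit of the polymerase, at a relative fold of 1.36, and TAF1D, of its promoter selectivity factor, at 1.08. Of 37 genes of rRNA processing and modification, 11 had peaks there, with a median relative fold of 1.0, and 0 were called in either direction. The most reads were those of DDX21, a nucleolar RNA helicase (2028 and 927, relative fold 1.0), NOLC1, a nucleolar phosphoprotein (719 and 335, 0.984) and BMS1, a GTPase of small subunit assembly (555 and 205, 1.24). The small RNAs of ribosome making, such as RMRP, had no peak, and the WT list had none for any of these 3 gene groups. Among cell line markers, 5 of 6 genes that mark MDA-MB-231 (VIM, CD44, AXL, CAV1 and EGFR) and 0 of 6 luminal markers had a peak in the E17K list. In the WT list 0 of the 12 had one. A gene without a peak was not measured, so these counts do not check the identity of the cells.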

How the data were processed

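The libraries are 1 anti-Flag immunoprecipitate and 1 input for each of 2 plasmids in MDA-MB-231. The authors deposited 1 peak list per plasmid with read counts per peak, which are whole numbers without scaling, and an adjusted p-value of the peak caller, which the deposited lists give for each peak and which was used as a filter only. Reads per kilobase, log odds scores, unadjusted p-values and empirical false discovery rates of the lists were not used. The submitters' processing notes name Bowtie2 2.2.8 and hg18. The coordinates of the lists nevertheless fit the gene spans of GRCh38, so the RefSeq table of GRCh38.p14 was used for the genes. The peak caller, how reads with several matches were treated, and the library totals are not given in the sources used here. Depth is therefore known only inside peaks: rRNA peaks held 29 to 141 immunoprecipitate and 9 to 92 input reads.

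All lists, members and tests were chosen with earlier results of these data known. The named peaks are all members, and of the related gene lists the called genes and the 3 with the most immunoprecipitate reads. Input counts of 3 or fewer were set to 3 for folds. Fisher's exact test was tried on simulated counts drawn with binomial error only. The counts of the lists vary more than that, so the simulation does not give the rate of false calls in them. The alternatives were other reference ratios, 1 read added, 1 copy of the unit, at least 0.5 of the peak inside the span, an adjusted p-value of the authors of at most 0.001, merged peaks, the binomial test, Fisher's test against peaks outside chromosome 21, a reciprocal overlap of 0.5 and the plus label. Added after seeing the data were the AKT1 peaks left out, the other minus-label peaks of chromosome 21 as reference and peaks of identical coordinates only. Python 3.11.15, scipy 1.17.1, numpy 2.4.6, pandas 2.3.3 and matplotlib 3.10.9 were used.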

Additional observations from a re-analysis of the deposited data

Results flagged for a closer look

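3 values lay on opposite sides of the list median in the 2 lists, and the difference was not tested because each plasmid has 1 pair of libraries. The relative fold over all 18S peaks was 0.743 for E17K and 1.04 for WT, a ratio of 0.711. The WT value had an interval of 0.891 to 1.22 and took in 2 late peaks with no E17K partner. At the early position alone, present in both lists, the values were 0.701 and 0.860, both below the median, and with 1 copy of the unit, RNA45SN1, the WT value was 0.581. At the early 18S peak of RNA45SN2 it was 0.660 and 1.04, a ratio of 0.635, and at the early 18S peak of RNA18SP5 0.642 and 1.01, a ratio of 0.638.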

How the results depend on the processing

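Of 115 values recalculated under an alternative setting for 17 results, 109 stayed within their 95% interval, within 1 SD of the members or, for counts, within 1.5 times, 6 moved and 0 reversed. A value could be labelled reversed only where the main interval or SD range excluded 1, and counts could not be. The 18S value of the WT list, whose interval included 1, therefore counted as moved although it crossed the list median. The relative fold over the rRNA peaks of the E17K list was 1.40 against the summed reads outside the rRNA genes, in place of 1.25, and 1.38 against the other minus-label peaks of chromosome 21, a setting chosen after seeing the data. With 1 copy of the 45S unit, RNA45SN1, the 18S relative fold of the WT list was 0.581 in place of 1.04, where by construction only its 1 early peak was left. The count of rRNA peaks called higher in the E17K list was 0 in the binomial test, 0 with the AKT1 peaks left out (added once the data had been seen) and 6 by fold alone, in place of 1. The cause was not tested. For the WT list the count stayed within 1.5 times of 12 in all settings. The plus label gave no value, since 0 rRNA peaks carry it. No paired analysis was possible because each group has 1 library. Read numbers limit single peaks: with 20 to 52 input reads in the E17K list, most of their intervals include 1.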
